A study of Mus musculus with 12 samples.

Results

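Aminoacyl-tRNA synthetases are the enzymes that join each amino acid to its transfer RNA (tRNA), the step that makes the genetic code readable by the ribosome. They were followed here in RNA sequencing counts of mature white adipocytes from the epididymal fat of lean male C57/BL6J mice. The genes were chosen by symbol alone: 1 letter for the amino acid followed by ars or ars2, with Eprs, Farsa and Farsb added. The rule found 37 of the 20295 genes of the count table, 20 of them cytosolic and 17 mitochondrial (symbols that end in 2), and all 37 had enough counts to be tested. The class is read from the symbol only, so genes whose product serves both compartments, as is known for Kars and Gars, stand among the cytosolic ones.

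The 12 libraries form 4 groups of 3: DMSO (vehicle), ISO (isoproterenol, an agonist of β-adrenergic receptors, present for 3 h), Lip (lipase inhibitors) and Lip+ISO (the inhibitors followed by ISO). The study's methods name Atglistatin, which blocks the lipase ATGL, and CAY10499, which blocks the lipase HSL, as the inhibitors. The cells were released with collagenase, floated, embedded at 50000 per well in a hydrogel and cultured for 2 days before treatment. Nothing in the labels ties a library to a particular mouse, so the p-values measure the spread between these cultures. Library totals ran from 22632220 to 43707557 counts, and the synthetases had between 72 counts (Pars2 in ISO replicate 1) and 36816 counts (Eprs in ISO replicate 2) in a library. Values in CPM (counts scaled to a common library size) are scaled between libraries by the TMM method, and a gene was called where the adjusted p of edgeR's quasi-likelihood test was at or under 0.05. Less RNA per cell and fewer cells of a type cannot be told apart in such bulk samples.

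A cytosolic set of synthetases serves the ribosomes of the cytoplasm, and a separate set, encoded in the nucleus and imported, serves the ribosomes of the mitochondria. In animals, several of the cytosolic enzymes sit together in a large complex held by scaffold proteins, and Eprs, one of its chains, carries both the glutamyl and the prolyl enzyme. Many of the cytosolic genes are textbook targets of the transcription factor ATF4, which acts in the amino acid response and the integrated stress response through a composite C/EBP-ATF element.

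The sequence before the start of Eprs is shown first, because Eprs is the member with the largest change. The 250 bases upstream of its start in the count table, at chr1:187186724-187186973 on the plus strand of mm9, are printed with each TGACG, read on either strand, in capitals.
Eprs upstream region: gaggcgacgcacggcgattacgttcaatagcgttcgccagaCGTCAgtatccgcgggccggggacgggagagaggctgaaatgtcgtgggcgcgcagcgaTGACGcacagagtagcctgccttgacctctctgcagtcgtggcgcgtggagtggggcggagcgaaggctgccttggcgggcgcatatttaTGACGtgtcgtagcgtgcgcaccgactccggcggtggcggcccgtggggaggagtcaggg
TGACG is the core of the cAMP response element TGACGTCA, the binding site of CREB family factors. It was searched after the values of Eprs had been seen, and a full TGACGTCA counts as 2 overlapping matches. In the windows from 250 bases before to 50 bases after each start, at least 1 TGACG was found in 14 of the 37 synthetases (37.8%) and in 24.9% of all 20295 genes, and at least 3 were found in Eprs alone of the 37 and in 1.43% of all genes. The first 21 bases of the printed region are shared with an exon of the long noncoding RNA gene 4930532G15Rik on the opposite strand.

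The C/EBP-ATF composite was searched in the same windows on both strands as TGATGNAA. It was found in 6 of the 37 synthetases (16.2%), all cytosolic (Aars, Cars, Gars, Iars, Nars and Tars), and in 3.23% of all genes. Eprs did not hold it. The full element TGACGTCA was found in 0 of the 37 and in 2.53% of all genes. The windows of Gars and Tars, in which the composite lies upstream of the start, are shown for comparison with Eprs, 5′ to 3′ on the strand of the gene in mm9, with the composite in capitals as its reverse complement.
Gars, chr6:54987954-54987983, plus strand: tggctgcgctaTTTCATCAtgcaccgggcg
Tars, chr15:11329414-11329439, minus strand: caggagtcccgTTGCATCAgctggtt
Neither gene was called in any comparison, whereas Aars, which also holds the composite upstream of its start and whose window is not shown, was called higher in Lip+ISO against Lip. A match of letters is a description of the sequence and not a binding site.

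Per kilobase of counted length, the cytosolic genes were the more abundant class. In DMSO their median level was 35.6 RPKM (CPM divided by the counted length in kilobases), against 7.49 RPKM for the mitochondrial genes. The highest cytosolic level in DMSO belonged to Aars, the alanyl enzyme, at 106 ± 0.587 RPKM (SD, n = 3), closely followed by Nars, the asparaginyl enzyme, at 103 ± 2.4 RPKM. The lowest belonged to Cars, the cysteinyl enzyme, at 15.1 ± 1.61 RPKM. Among the mitochondrial genes Lars2, the leucyl enzyme, was highest at 43.9 ± 14.1 RPKM, with Iars2, the isoleucyl enzyme, within its SD at 42.4 ± 2.46 RPKM, and Pars2, the prolyl enzyme, was lowest at 2.74 ± 0.0906 RPKM. Eprs ranked 4 of 37 in DMSO and in Lip, and 1 of 37 in ISO and in Lip+ISO, where it reached 185 ± 20.7 and 250 ± 10.9 RPKM. Cars2 moved from rank 27 in DMSO to 23 in ISO and 21 in Lip+ISO, and Nars2 from rank 35 to 32 and 28.

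**Figure D1:**
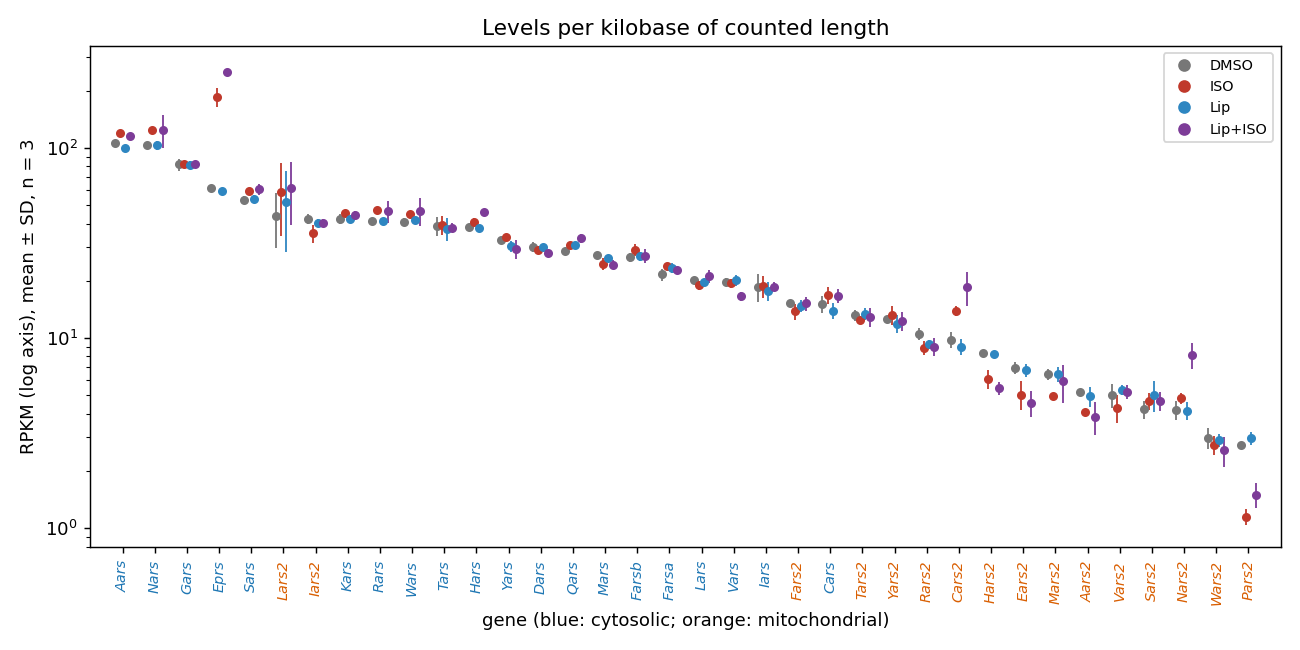
Level of 36 of the 37 synthetase genes in RPKM (log axis; mean ± SD, n = 3) in the 4 groups, ordered by the level in DMSO, with cytosolic names in blue and mitochondrial names in orange. Eprs leaves its neighbors in ISO and Lip+ISO (185 and 250 RPKM against 61.5 in DMSO), Pars2 stands lowest, and Lars2 has the widest error bars.

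The comparison of ISO with DMSO asks what β-adrenergic stimulation does to the synthetases. Eprs rose about 3-fold, and it was the only cytosolic gene of the 20 that was called, whereas 5 of the 17 mitochondrial genes fell, among them Pars2, Ears2, Hars2 and Iars2, and 1 rose (Cars2). In all, 7 of 37 were called (18.9%), against 26.2% of the 13543 genes tested. By direction, 2 of 37 rose, against 12.3% of all genes, and 5 of 37 fell, against 13.9%. The share among the cytosolic genes was 5.0% and among the mitochondrial genes 35.3%. The median log2 fold change was 0.10 over the cytosolic and −0.23 over the mitochondrial genes, against 0.00 over all genes. With a log2 fold change of at least 1 required as well, 1 of 37 rose (Eprs) and 1 fell (Pars2), against 5.68% and 1.8% of all genes. The ISO and DMSO libraries did not overlap for 17 of the 37 (45.9%), and this was so for 43.3% of all genes tested.

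Eprs lies on chromosome 1 at 187186974 to 187252234 (mm9, plus strand). Its level was 289, 294 and 311 CPM in the 3 DMSO libraries and 1010, 832 and 848 CPM in the 3 ISO libraries. In Lip it was 286, 290 and 289 CPM, and in Lip+ISO 1210, 1160 and 1270 CPM. Every library with ISO was far above every library without it, and every Lip+ISO library was above every ISO library. The log2 fold change was 1.59 ± 0.09 (SE) for ISO against DMSO, with an adjusted p of 1.1e-07 in edgeR's quasi-likelihood test, and 2.07 ± 0.09 for Lip+ISO against Lip, with an adjusted p of 5.2e-09 in the same test. Both calls remained in each of the 15 fits that left out a library or a replicate number.

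Most of the difference in the summed level of the cytosolic class lay in Eprs. Summed over the 20 cytosolic genes, the level was 2440 to 2600 CPM in DMSO and 3230 to 3360 CPM in ISO. Without Eprs the sum was 2150 to 2290 CPM in DMSO and 2350 to 2450 CPM in ISO, ranges that did not overlap, but scaled by library totals alone they did (2130 to 2370 and 2200 to 2480 CPM). Eprs made up 11.8 ± 0.215% (SD, n = 3) of the cytosolic sum in DMSO, 27.2 ± 2.55% in ISO, 11.6 ± 0.146% in Lip and 33.8 ± 1.70% in Lip+ISO. The other 19 cytosolic genes had log2 fold changes between −0.16 (Mars) and 0.26 (Nars) in ISO against DMSO, and 0 of them were called by edgeR, although 4 had an unadjusted p under 0.05 and DESeq2 called 1. With the replicate number as a block, Aars was called as well (log2 fold change 0.17, adjusted p = 0.0298 with the replicate block and 0.0635 without it).

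Split by place in the cell, the 8 synthetases of the large complex (Dars, Eprs, Iars, Kars, Lars, Mars, Qars and Rars) had 1 call, Eprs, and a median log2 fold change of 0.05. The 12 enzymes outside the complex had 0 calls in edgeR, 2 with an unadjusted p under 0.05 and 1 by DESeq2, and a median of 0.12. Split by regulation, the 13 cytosolic genes known as targets of the amino acid response had 1 call, Eprs again, and a median of 0.06, and the other 7 had 0 calls in edgeR, 1 with an unadjusted p under 0.05 and 0 by DESeq2, and a median of 0.10. The shares called in these 4 subsets, in the order given, were 12.5%, 0.0%, 7.69% and 0.0%, against 26.2% of all genes.

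Mars, the methionyl enzyme, was not called in any comparison. It was at 79.5, 79.8 and 78.6 CPM in DMSO, 73.0, 75.1 and 65.0 CPM in ISO, 74.6, 74.5 and 79.2 CPM in Lip and 67.6, 68.6 and 74.9 CPM in Lip+ISO. Its ISO libraries lay below its DMSO libraries, with a log2 fold change of −0.16 ± 0.07 (adjusted p = 0.129 by edgeR). Its span overlaps that of Ddit3, a stress-induced transcription factor on the opposite strand, by 68 bases. The spans of Farsb and Sgpp2 (2329 bases), Iars2 and Rab3gap2 (85 bases) and Yars and C77080 (30 bases) overlap in the same way, and since nothing states that strand was used in the counting, the values of these 4 synthetases are uncertain to that extent.

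**Figure D2:**
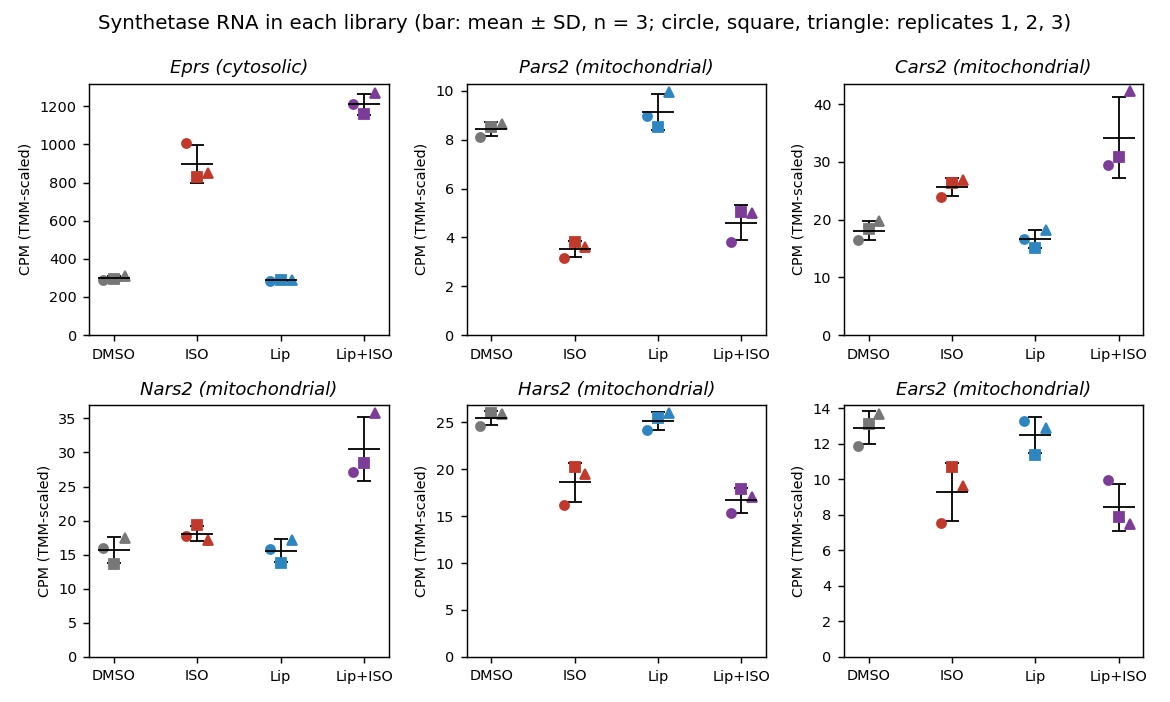
CPM of 6 synthetase genes in each of the 12 libraries, with points for the replicates and bars for mean ± SD (n = 3). Eprs, Cars2 and Nars2 are highest in Lip+ISO, and Pars2, Hars2 and Ears2 are lower in the groups with ISO than in the groups without it.

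Pars2, which charges mitochondrial tRNA with proline, fell most in ISO. It lies on chromosome 4 at 106323674 to 106327887 (plus strand). Its level was 8.12, 8.52 and 8.65 CPM in DMSO and 3.17, 3.82 and 3.59 CPM in ISO. In Lip it was 8.96, 8.53 and 9.96 CPM, and in Lip+ISO 3.80, 5.04 and 5.00 CPM. The libraries with ISO did not overlap those without it. The log2 fold change was −1.25 ± 0.16 for ISO against DMSO (adjusted p = 0.00011 by edgeR) and −0.99 ± 0.16 for Lip+ISO against Lip (adjusted p = 0.0004 by edgeR), and both calls remained in each of the 15 fits with fewer libraries.

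Ears2, the mitochondrial glutamyl enzyme (chromosome 7, 129182335 to 129210577, minus strand), fell less. It was at 11.9, 13.1 and 13.7 CPM in DMSO, 7.53, 10.7 and 9.64 CPM in ISO, 13.3, 11.4 and 12.9 CPM in Lip and 9.94, 7.89 and 7.46 CPM in Lip+ISO. The groups with and without ISO did not overlap. The log2 fold change was −0.47 ± 0.16 (adjusted p = 0.0433 by edgeR) without and −0.57 ± 0.16 (adjusted p = 0.0156) with the inhibitors. The first call was lost in 10 of the 15 fits with fewer libraries (without DMSO replicate 1, 2 or 3, ISO replicate 1 or 3, Lip replicate 1 or 3, or any 1 replicate number), with adjusted p of 0.0506 to 0.22. The second was lost in 5 (without Lip replicate 1, Lip+ISO replicate 2 or 3, or number 2 or 3), with adjusted p of 0.0591 to 0.178. Eprs joins glutamate and proline in the cytosol, and Ears2 and Pars2 join the same amino acids in the mitochondria, so in both comparisons the cytosolic gene rose where its mitochondrial counterparts fell.

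Hars2, the mitochondrial histidyl enzyme, was at 24.6, 26.0 and 25.9 CPM in DMSO, 16.2, 20.2 and 19.5 CPM in ISO, 24.2, 25.5 and 26.0 CPM in Lip and 15.3, 17.9 and 17.0 CPM in Lip+ISO. The libraries with ISO were below all those without it. The log2 fold change was −0.45 ± 0.10 (adjusted p = 0.00599 by edgeR) and, with the inhibitors, −0.59 ± 0.10 (adjusted p = 0.00074). The first call was lost when the libraries numbered 3 were left out (log2 fold change −0.47, adjusted p = 0.0633). Hars, the cytosolic histidyl enzyme, starts 74 bases from Hars2 on the opposite strand. Hars was not called in ISO against DMSO (0.09 ± 0.06, adjusted p = 0.304) and rose in Lip+ISO against Lip, where Hars2 fell.

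Iars2, the mitochondrial isoleucyl enzyme, fell by 0.26 on the log2 scale (SE 0.09, adjusted p = 0.0422 by edgeR) in ISO against DMSO, from 156, 139 and 145 CPM to 138, 117 and 114 CPM. Its call was lost in 9 of the 15 fits with fewer libraries (without DMSO replicate 1 or 3, ISO replicate 2 or 3, Lip replicate 2 or 3, Lip+ISO replicate 2, or number 2 or 3), with adjusted p of 0.0516 to 0.244. It was not called in Lip+ISO against Lip (0.01 ± 0.09, adjusted p = 0.941). With the replicate block, Aars2 (log2 fold change −0.34, adjusted p = 0.0306, against 0.0796 without the block) and Mars2 (−0.37, adjusted p = 0.0253, against 0.0667) were called lower too. This makes 7 mitochondrial genes lower, with no share of all genes from the fit with the block beside it.

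Cars2, the mitochondrial cysteinyl enzyme (chromosome 8, 11514017 to 11550771, minus strand), was the only mitochondrial gene that rose in ISO. It was at 16.4, 18.3 and 19.7 CPM in DMSO, 24.0, 26.3 and 26.9 CPM in ISO, 16.6, 15.1 and 18.2 CPM in Lip and 29.5, 30.8 and 42.2 CPM in Lip+ISO. The order DMSO and Lip, then ISO, then Lip+ISO held with no overlap. The log2 fold change was 0.51 ± 0.14 (adjusted p = 0.0166 by edgeR) for ISO against DMSO and 1.04 ± 0.14 (adjusted p = 9.4e-05) for Lip+ISO against Lip. The first call was lost in 5 of the 15 fits (without DMSO replicate 1, ISO replicate 2 or 3, or number 1 or 2), with adjusted p of 0.0541 to 0.122.

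**Figure D3:**
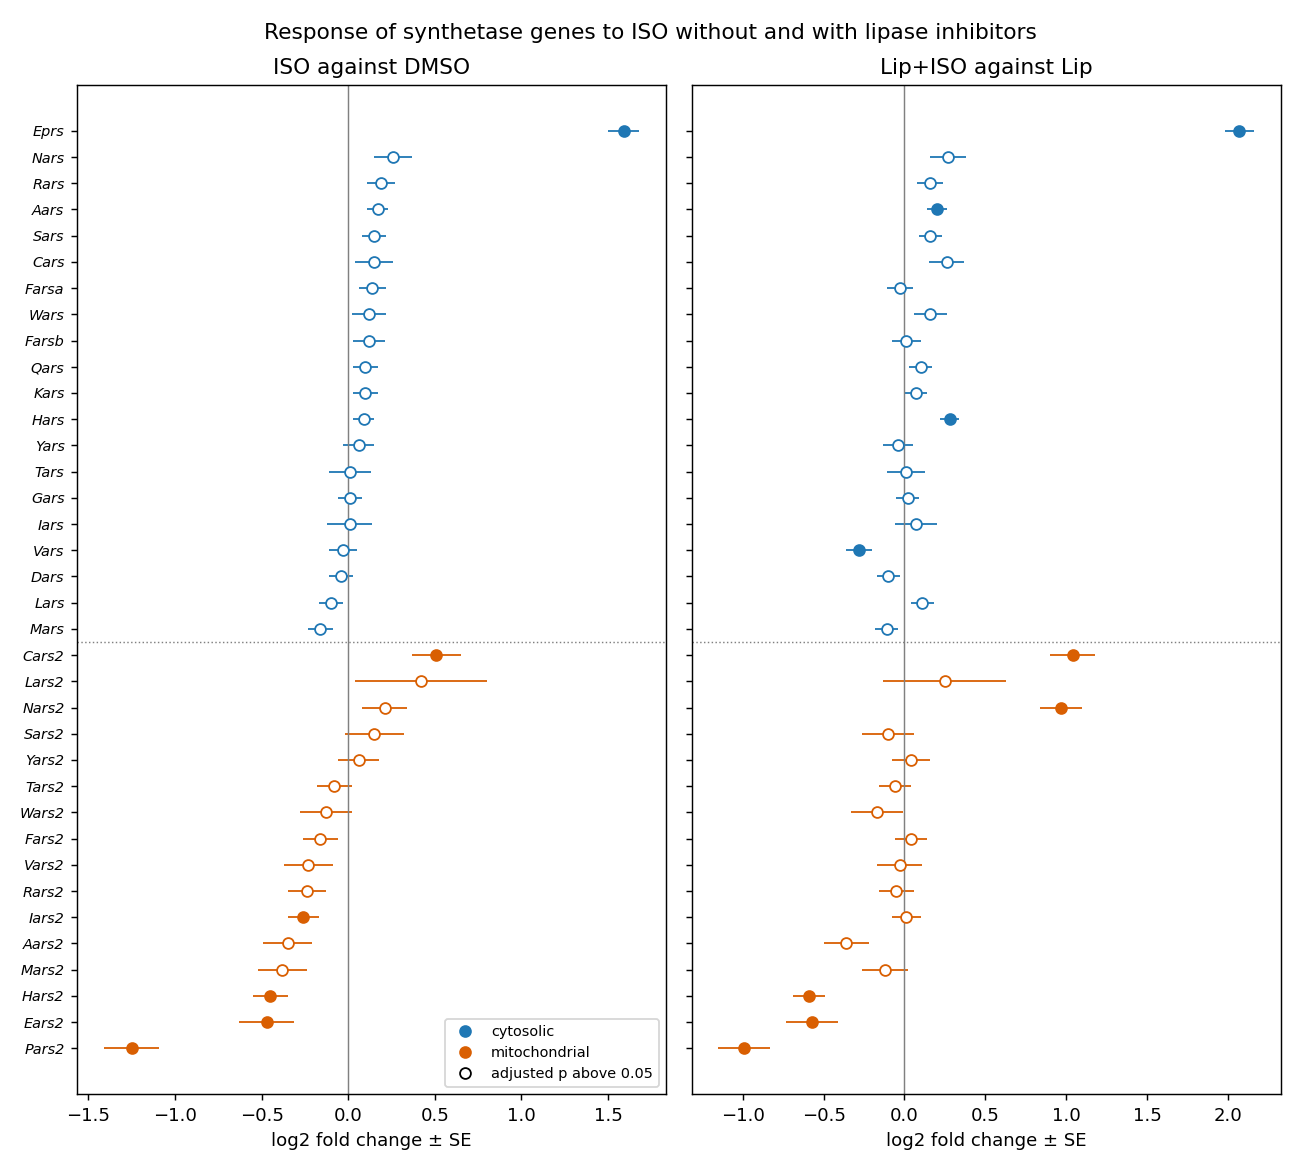
Log2 fold change ± SE of 36 of the 37 synthetase genes for ISO against DMSO and for Lip+ISO against Lip, with cytosolic genes above the dotted line, mitochondrial genes below it and filled points where the adjusted p is at or under 0.05. Eprs stands alone on the right in both panels (1.59 and 2.07), Pars2 on the left (−1.25 and −0.99), and Cars2 and Nars2 are near 1 in the panel with inhibitors.

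Summed over the 17 mitochondrial genes the level hardly separated the groups, at 569 to 675 CPM in DMSO and 535 to 706 CPM in ISO. Lars2 made up a large and uneven share of that sum. It was at 230, 158 and 123 CPM in DMSO, 141, 213 and 329 CPM in ISO, 286, 211 and 105 CPM in Lip and 181, 338 and 199 CPM in Lip+ISO, so the groups overlapped throughout. Its coefficient of variation within groups was 32.1% to 45.5%, whereas the highest of any other member was 22.7% and the median of the others was 6.30%. Without Lars2 the mitochondrial sum was 415 to 446 CPM in DMSO and 374 to 393 CPM in ISO, which did not overlap, and 404 to 440 CPM in Lip and 405 to 468 CPM in Lip+ISO, which did. Scaling by library totals left these separations as they were.

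The comparison of Lip+ISO with Lip asks the same question when lipolysis is blocked. In it, 9 of the 37 synthetases were called (24.3%), against 27.3% of all genes tested. Eprs, Cars2, Nars2, Hars and Aars rose (5 of 37, against 11.5% of all genes), and Pars2, Hars2, Ears2 and Vars fell (4 of 37, against 15.8%). With a log2 fold change of at least 1 required as well, 2 rose (Eprs and Cars2) and 0 fell by edgeR, against 4.19% and 3.16% of all genes. The median log2 fold change was 0.09 over the cytosolic and −0.06 over the mitochondrial genes. The 2 groups did not overlap for 15 of the 37 (40.5%), against 39.1% of all genes.

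Nars2, the mitochondrial asparaginyl enzyme (chromosome 7, 104100037 to 104213267, plus strand), was at 16, 13.7 and 17.4 CPM in DMSO and 17.7, 19.4 and 17.2 CPM in ISO, which overlapped. In Lip it was at 15.8, 13.8 and 17.2 CPM and in Lip+ISO at 27.1, 28.5 and 35.8 CPM, above all 9 other libraries. The log2 fold change was 0.21 ± 0.13 (adjusted p = 0.267 by edgeR) for ISO against DMSO and 0.97 ± 0.13 (adjusted p = 0.00012) for Lip+ISO against Lip.

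The cytosolic calls other than Eprs were small. Hars rose by a log2 fold change of 0.28 ± 0.06 (adjusted p = 0.004 by edgeR) from 73.6, 77.3 and 74.4 CPM in Lip to 91.8, 90.7 and 91.0 CPM in Lip+ISO, a call lost without the libraries numbered 2 (0.30, adjusted p = 0.0773). Aars rose by 0.20 ± 0.06 (adjusted p = 0.034) from 379, 366 and 372 CPM to 445, 411 and 428 CPM. That call was lost in 11 of the 15 fits, all but those without ISO replicate 1 or 3 or without Lip+ISO replicate 2 or 3, with adjusted p of 0.0514 to 0.228. Vars, the valyl enzyme, fell by 0.28 (SE 0.08, adjusted p = 0.0165) from 82.0, 82.0 and 91.3 CPM to 74.1, 66.4 and 70.4 CPM, a call lost in 4 fits (without Lip replicate 3, Lip+ISO replicate 2, or number 2 or 3), with adjusted p of 0.0774 to 0.166. With the replicate block Cars (0.27, adjusted p = 0.0491, against 0.104 without it) was called higher and Aars2 (−0.37, adjusted p = 0.0235, against 0.0674) lower.

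**Figure D4:**
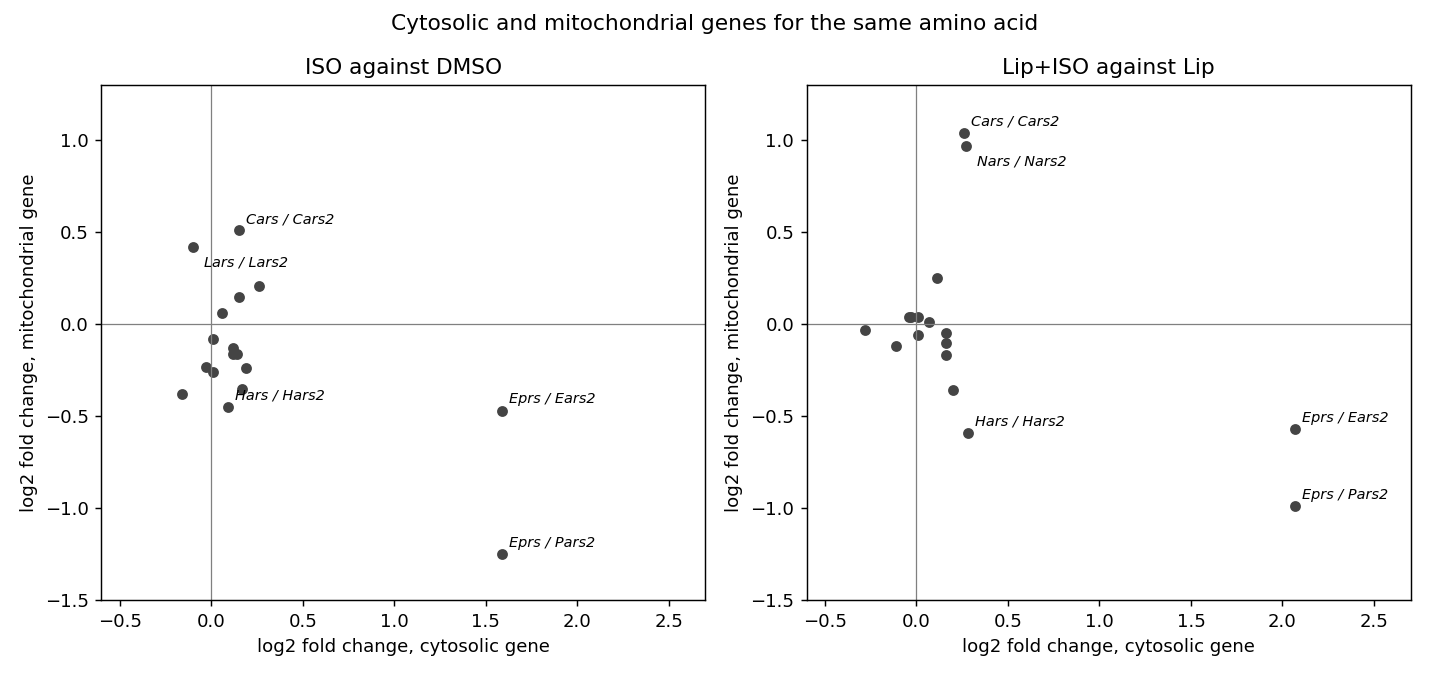
Log2 fold change of the cytosolic gene (horizontal axis) and the mitochondrial gene (vertical axis) for the same amino acid, for ISO against DMSO and Lip+ISO against Lip, with Eprs drawn for both glutamate and proline. The pairs of Eprs with Ears2 and Pars2 lie at the lower right, and the cysteinyl and asparaginyl pairs rise on the vertical axis with the inhibitors (1.04 for Cars2 and 0.97 for Nars2).

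The comparison of Lip with DMSO gives the effect of the inhibitors alone. In Lip against DMSO, 0 of 37 were called by edgeR, 0 had an unadjusted p under 0.05 and 0 were called by DESeq2, against 0.0517% of all genes called (0.00738% higher and 0.0443% lower, and 0.0222% lower by a log2 fold change of at least 1). The groups did not overlap for 2 of 37 (5.41%), against 10.4% of all genes. The log2 fold changes ran from −0.18 (Rars2) to 0.25 (Sars2), and the 95% interval for Eprs was −0.25 to 0.15. Over the other members, the widest interval was that of Lars2, −0.64 to 1.11, and the bounds without Lars2 ran from −0.44 to 0.63.

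The comparison of Lip+ISO with ISO gives the effect of the inhibitors in the presence of ISO. In it, 2 of the 37 synthetases were called (5.41%), against 8.94% of all genes tested, and both were higher with the inhibitors (4.36% of all genes were higher and 4.59% lower). None of the 37 passed with a log2 fold change of at least 1, against 0.79% higher and 1.2% lower of all genes. Eprs was higher by a log2 fold change of 0.43 ± 0.09 (adjusted p = 0.00698 by edgeR) and Nars2 by 0.75 ± 0.13 (adjusted p = 0.00338). The call of Eprs was lost without the libraries numbered 2 (0.41, adjusted p = 0.152) or 3 (0.36, adjusted p = 0.154), and that of Nars2 without those numbered 3 (0.58, adjusted p = 0.0599). Cars2 was at 0.41 ± 0.14 and was not called by edgeR (adjusted p = 0.0843). It was called by DESeq2 (adjusted p = 0.0399) and by edgeR with the replicate block (adjusted p = 0.0138). DESeq2 also called Hars higher (0.18, adjusted p = 0.0484, against 0.126 by edgeR). No member was called lower with the inhibitors by edgeR without the block, and edgeR found an unadjusted p under 0.05 for 9 of the 37. With the block Vars was called lower (−0.22, adjusted p = 0.0409, against 0.0951 without it). The groups did not overlap for 9 of 37 (24.3%), against 25.4% of all genes.

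Whether the response to ISO itself differed with the inhibitors was tested as an interaction, for which 1.62% of all genes were called (0.901% with a larger and 0.724% with a smaller response with the inhibitors, and 0.406% and 0.34% by a log2 difference of at least 1). None of the 37 was called by edgeR without the replicate block, 6 had an unadjusted p under 0.05, and DESeq2 called 2 (Eprs and Nars2). With the replicate block edgeR called 3, all with a larger response with the inhibitors. The shares of all genes given above are from the fit without the block. They were Nars2 (0.74, adjusted p = 0.0184), Eprs (0.48, adjusted p = 0.023) and Cars2 (0.52, adjusted p = 0.0461). Without the block the interaction was 0.76 ± 0.19 for Nars2 (adjusted p = 0.0677 by edgeR, 0.00985 by DESeq2). It was 0.48 ± 0.12 for Eprs (0.0729 and 0.00297) and 0.53 ± 0.19 for Cars2 (0.232 and 0.134). Lip+ISO against ISO, Lip+ISO against Lip and ISO against DMSO share libraries, so these values are not independent of each other.

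ATF4 pathway genes outside the synthetases are given for comparison. Shares of all genes come from the fit without the replicate block, so counts with the block have none beside them. Of 28 listed genes, 10 rose and 1 fell in ISO against DMSO (39.3% called, against 26.2% of all genes, of which 12.3% rose and 13.9% fell), with a median log2 fold change of 0.23, and with the replicate block 14 rose and 3 fell. Cebpb, a C/EBP family factor, rose by 2.06 ± 0.18 (adjusted p = 5.5e-06 by edgeR), Atf3, a stress-induced factor of the ATF family, by 1.94 ± 0.27 (adjusted p = 0.00023), and Ddit4, an inhibitor of mTORC1 signaling, by 1.55 ± 0.17 (adjusted p = 3.3e-05). Atf4 itself rose from 233, 288 and 301 CPM in DMSO to 487, 483 and 524 CPM in ISO (0.86 ± 0.12, adjusted p = 0.00027). Asns, the asparagine synthetase that is a classic ATF4 target, was at 123, 132 and 133 CPM in DMSO and 120, 121 and 117 CPM in ISO and was not called (−0.11 ± 0.08, adjusted p = 0.29). Ddit3 was not called either (0.01 ± 0.21, adjusted p = 0.971).

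In Lip+ISO against ISO, 3 of the 28 were higher and 1 lower, against 4.36% and 4.59% of all genes. Trib3, a pseudokinase that acts on ATF4, was at 171, 147 and 184 CPM in ISO and 446, 355 and 363 CPM in Lip+ISO (1.21 ± 0.11, adjusted p = 4.1e-05 by edgeR). Slc7a5, a transporter of large neutral amino acids, was higher by 0.88 ± 0.15 (adjusted p = 0.00259) and Cth, which makes cysteine from cystathionine, by 0.85 ± 0.09 (adjusted p = 0.00011). Fgf21, a secreted hormone, was lower by 1.59 on the log2 scale (SE 0.45, adjusted p = 0.0463), a call lost in 9 of the 15 fits with fewer libraries (without DMSO or Lip replicate 2, ISO replicate 2 or 3, any Lip+ISO replicate, or number 2 or 3), with adjusted p of 0.0592 to 0.293. Atf4 was not called in this comparison (−0.28 ± 0.12, adjusted p = 0.186). In Lip+ISO against Lip, 12 of the 28 rose and 3 fell (53.6% called, against 27.3% of all genes, of which 11.5% rose and 15.8% fell). Lip+ISO replicate 1 stood apart from the other libraries of its group in the summed level of the list, at 7010 CPM against 4960 and 5430 CPM, and in that of the cytosolic synthetases without Eprs, at 2550 CPM against 2280 and 2290 CPM.

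Genes that work beside the synthetases were called in shares on both sides of that of all genes, which was 26.2% in ISO against DMSO and 27.3% in Lip+ISO against Lip. In these comparisons the shares were 33.3% and 0.0% of the scaffold proteins, 15.4% and 23.1% of the accessory genes, 22.2% and 44.4% of the elongation factors, and 26.7% and 33.3% of the RNA polymerase III genes. In ISO against DMSO all calls were higher for the scaffold proteins and elongation factors and lower for the accessory and RNA polymerase III genes. By direction, 12.3% of all genes rose and 13.9% fell there, and 11.5% rose and 15.8% fell in Lip+ISO against Lip. All these shares are from the fit without the replicate block and do not apply to counts with the block. Of the 3 scaffold proteins of the complex (Aimp1, Aimp2 and Eef1e1), Eef1e1 rose in ISO against DMSO (0.35 ± 0.10, adjusted p = 0.0201 by edgeR) and was lower in Lip+ISO than in ISO (−0.43 ± 0.10, adjusted p = 0.0164). The first call was lost without DMSO replicate 1 or 3, ISO replicate 2 or 3, or any 1 replicate number (adjusted p of 0.0534 to 0.157), and the second without ISO replicate 2 or 3, Lip+ISO replicate 3, or number 2 or 3 (0.0615 to 0.209). With the block Aimp1 was called too in ISO against DMSO (0.22, adjusted p = 0.0329).

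Of 13 synthetase-like and tRNA accessory genes, 2 fell in ISO against DMSO (5 with the replicate block) and 3 in Lip+ISO against Lip. Sepsecs, which makes selenocysteinyl-tRNA, fell by 0.70 on the log2 scale in ISO against DMSO (SE 0.14, adjusted p = 0.00239 by edgeR), and Mtfmt, which formylates the initiator tRNA of mitochondria, fell by 0.52 (SE 0.13, adjusted p = 0.0113), a call lost without number 2 (0.0929) or 3 (0.143). Of 9 elongation factors, 2 rose in ISO against DMSO (5 with the block), and 3 rose and 1 fell in Lip+ISO against Lip. They were Eef1b2 (0.34 ± 0.09, adjusted p = 0.0118) and Eef1d (0.26 ± 0.07, adjusted p = 0.012), subunits of the exchange factor of eEF1A. The call of Eef1b2 was lost without DMSO replicate 1, ISO replicate 3, or number 2 or 3 (adjusted p of 0.052 to 0.141), and that of Eef1d without DMSO replicate 3 or number 2 or 3 (0.0568 to 0.125).

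Of 15 genes of RNA polymerase III, which transcribes tRNA genes, and of its factors, 4 fell in ISO against DMSO (6 with the block), and 1 rose and 4 fell in Lip+ISO against Lip. Its largest subunit, Polr3a, fell by 0.55 on the log2 scale in ISO against DMSO (SE 0.10, adjusted p = 0.00151 by edgeR), a call lost without number 2 (0.0641). The second largest subunit, Polr3b, fell by 0.33 (SE 0.08, adjusted p = 0.0125), a call lost without any 1 replicate number (0.0716 to 0.106). The initiation factor subunit Brf2 fell by 0.38 (SE 0.13, adjusted p = 0.0438), a call lost in 10 of the 15 fits (without any DMSO replicate, Lip replicate 1 or 2, ISO replicate 1 or 2, or any 1 number), with adjusted p of 0.0524 to 0.274. The remaining call was Maf1, a repressor of the polymerase and not a part of it. It was at −0.30 in ISO against DMSO, a call lost without any 1 replicate number (adjusted p of 0.0531 to 0.0658 by edgeR), and at −0.36 in Lip+ISO against Lip.

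Markers of other cell types were counted in the same libraries. Over all genes tested, 12.3% rose and 13.9% fell in ISO against DMSO, and 11.5% rose in Lip+ISO against Lip. These shares are from the fit without the replicate block, so marker counts with the block cannot be set against them. In ISO against DMSO, 54.5% of the macrophage, 44.4% of the fibroblast, 14.3% of the mesothelial and 10.0% of the endothelial markers tested rose. The mesothelial and endothelial shares were near that of all genes. Of the adipocyte markers 20.0% fell. Adipocyte markers dominated, with a summed level of 33100 to 41800 CPM in DMSO, 29200 to 38800 CPM in ISO, 30600 to 35900 CPM in Lip and 26800 to 36700 CPM in Lip+ISO, and 2 of 10 fell in ISO (Lep and Pparg). The 12 macrophage markers summed to 55.0 to 69.6 CPM in DMSO, 106 to 158 CPM in ISO, 58.0 to 63.6 CPM in Lip and 66.7 to 118 CPM in Lip+ISO, and 6 of the 11 tested rose in ISO (8 with the replicate block). The 10 endothelial markers summed to 133 to 252, 302 to 545, 67.4 to 218 and 102 to 299 CPM in the same order of groups, and 1 rose (9 with the replicate block). The 9 fibroblast and stromal markers summed to 455 to 799, 901 to 1200, 606 to 643 and 562 to 760 CPM, and 4 rose (7 with the block). The 7 mesothelial markers of the table summed to 27.6 to 66.1, 68.6 to 78.9, 14.8 to 96.0 and 44.2 to 60.3 CPM, and 1 rose (2 with the block). No marker was at 3 counts or fewer in every library. In Lip+ISO against Lip the macrophage list had 2 markers called higher (3 with the block), the endothelial list 1 (7 with the block) and the mesothelial list 1 (1 with the block), and the fibroblast list had 0 by edgeR with or without the block, 0 at an unadjusted p under 0.05 and 0 by DESeq2. Of 10 adipocyte markers 2 fell there (Lep and Lipe), against 15.8% of all genes. In Lip+ISO against ISO, 4 of 9 fibroblast markers were lower by edgeR. So were 1 of 11 macrophage and 1 of 10 endothelial markers, and 0 of 7 mesothelial markers (1 with the block). Of the adipocyte markers 1 was lower (Lipe) and 1 higher (Pparg). Over all genes 4.59% were lower and 4.36% higher. Each of these calls except that of Lep was lost in at least 1 of the 15 fits. The part of these cells in the synthetase values was not tested.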

How the data were processed

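The file holds raw counts per gene as deposited. The authors aligned the reads with STAR 2.4.2a (mm9) and counted them over RefSeq genes with iRNA-seq and HOMER. Groups and replicate numbers come from the sample titles. The titles name ISO, which was followed, whereas a figure legend of the study names SR-3420. RPKM uses the counted exon length that the table gives.

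Of 20295 genes, 13543 passed filterByExpr. They were scaled by TMM and tested in edgeR 4.0.16 (R 4.3.3) by the quasi-likelihood test (two-sided) with a mean for each of the 4 groups, and p-values were adjusted over all 13543 genes (Benjamini-Hochberg). Dispersion between replicates, as the common biological coefficient of variation, came to 0.163. The procedure was tested on simulated data. SE values come from the F statistic, and 95% intervals use 8 residual degrees of freedom. Alternatives were DESeq2 1.42.0, its size factors, library totals, no filter, a minimum log2 fold change of 1, the replicate number as a block, only the groups compared, and 15 fits without 1 library or 1 replicate number.

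The synthetases and gene lists were chosen with earlier results of these data known. Called members are named, except that results withheld for evaluation are not reported here. From each other list, up to 3 called genes with the largest fold change in ISO against DMSO or Lip+ISO against ISO are named, with Atf4, Asns, Ddit3 and Maf1. Lars2, Cth, Maf1, genes called only with the block, the TGACG search and the sequences of Eprs, Gars and Tars were added after their values were seen.

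Deviations from group means correlated between libraries of the same number with r of 0.0373 to 0.369 (17 of 18 pairs over 0.1) and between other libraries with r of −0.329 to 0.0853. For ISO with DMSO, Lip+ISO with Lip and Lip with DMSO every pair of the same number was over 0.1, and the numbers were taken to pair these libraries. For Lip+ISO with ISO the pairs numbered 1, 2 and 3 were at 0.1025, 0.3108 and 0.0373, so 1 pair was under 0.1. Numbers that pair the other groups would pair these libraries too. Results with the block are therefore given for Lip+ISO against ISO and for the interaction as well. Every share of all genes called is from the fit without the block.

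Promoter windows were read from mm9 at the starts in the table. Of the 37 starts, 35 lay within 50 bases of an annotated transcript start, and 22 windows equaled a RefSeq promoter window.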

Additional observations from a re-analysis of the deposited data

Results flagged for a closer look

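By the interaction term of the edgeR fit, the response to ISO differed with the lipase inhibitors for 2 of the 28 ATF4 list genes. That is 7.14% of the list, against 1.62% of all genes tested. For Trib3 the response was larger by 1.18 ± 0.16 on the log2 scale with the inhibitors (adjusted p = 0.00273), from 83.4 to 103 CPM in Lip to 355 to 446 CPM in Lip+ISO. That call was lost without the libraries numbered 2 (1.20, adjusted p = 0.0805). For Cth the response was larger by 1.09 ± 0.13 (adjusted p = 0.0015), from 9.89 to 10.9 CPM in Lip to 31.2 to 35.0 CPM in Lip+ISO. That call was lost without the libraries numbered 2 (1.14, adjusted p = 0.0805) or 3 (1.03, adjusted p = 0.0785).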

How the results depend on the processing

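Counts of called synthetases were small, so single genes near the threshold moved them. In ISO against DMSO, cytosolic genes called higher went from 1 to 2 with DESeq2, with the replicate block and with only the groups compared, and mitochondrial genes called lower went from 5 to 3 with DESeq2's size factors, 4 with no filter and 7 with library totals or the replicate block. With a minimum log2 fold change of 1, the mitochondrial counts were 0 higher and 1 lower. In Lip+ISO against Lip, scaling by library totals gave 1 cytosolic gene higher in place of 3, 3 lower in place of 1, and 5 mitochondrial genes lower in place of 3. Only the groups compared gave 0 cytosolic genes lower, and a minimum log2 fold change of 1 gave 1 higher and 0 lower among the cytosolic and 1 higher and 0 lower among the mitochondrial genes. In Lip+ISO against ISO, DESeq2 gave 2 higher in each class, the replicate block gave 1 cytosolic gene lower and 2 mitochondrial genes higher, the fit of only the groups compared gave 0 cytosolic genes higher (Eprs at 0.44, adjusted p = 0.0608), and a minimum log2 fold change of 1 gave 0 in each class. For the interaction, DESeq2 gave 1 cytosolic and 1 mitochondrial gene, and the replicate block gave 1 cytosolic gene (Eprs, adjusted p = 0.023) and 2 mitochondrial genes (Nars2, 0.0184, and Cars2, 0.0461). The cause of these moves was not tested.

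Over the 15 fits with fewer libraries, ISO against DMSO had 1 to 3 cytosolic genes higher, 0 to 1 mitochondrial genes higher and 1 to 7 lower. Lip+ISO against Lip had 1 to 5 cytosolic genes higher and 0 to 1 lower, with 2 mitochondrial genes higher and 2 to 3 lower. Lip+ISO against ISO had 0 to 1 cytosolic and 0 to 2 mitochondrial genes higher, and the interaction 0 to 1 in each class. Lars2 in ISO against DMSO, at 0.42 with all libraries, ran from −0.13 (without the libraries numbered 3) to 0.95 (without those numbered 1). The replicate block ended no call of a synthetase.

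With 3 libraries a group, differences of the size seen for Aars, Hars and Vars lie near what the test can call, and a member without a call is not shown to be unchanged. The 3 h time point gives RNA levels only.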
